A study of Mus musculus with 6 samples.

Results

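The 10 genes of polycomb repressive complex 1 (PRC1) followed here in embryonic submandibular glands (eSMGs) were the 2 RING ubiquitin ligases (Ring1, Rnf2), 3 polyhomeotic-like subunits (Phc1, Phc2, Phc3), RYBP and its paralog YAF2 (Rybp, Yaf2) and 3 PCGF subunits (Bmi1, Pcgf1, Pcgf5). They were chosen by gene symbol, without the chromobox genes, and all 10 were found among the 23260 gene lines kept of each count file. The glands came from ICR mouse embryos at embryonic day 14 (E14) and were cultured whole, with epithelium and mesenchyme together, for 6 h without (control, 3 tubes) or with 50 µM AMD3100 (3 tubes), an antagonist of the chemokine receptor CXCR4. Each tube pooled up to 10 glands, and the study describes its experiments in general as independent repeats, but the labels do not say whether tubes of a group came from separate litters, so p-values measure the spread between these tubes. A 3′ mRNA kit, whose reads come from the 3′ end of a transcript, was used, and the libraries held between 9051595 and 14393031 counts each. Levels are given as TMM-normalized CPM, counts scaled to a common library size with edgeR's TMM factors, as mean ± SD of 3 tubes. They are compared between tubes, and between genes only as counts, for shares and ratios within a family and to name 1 gene of each marker list.

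PRC1 is the complex that places ubiquitin on histone H2A at chromatin to be kept silent, and it holds developmental genes off until their time. Every form of it has RING1 or RNF2 as the ligase, paired with a PCGF subunit. Canonical PRC1 adds a chromobox protein, which reads the mark left by PRC2, and a PHC subunit, whose SAM domain polymerizes and compacts chromatin. Variant PRC1 carries RYBP or YAF2 in place of these and is the more active ligase.

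Rybp and Pcgf1 have limits set by the sequence of their 3′ ends, and Ring1, Pcgf1 and Pcgf5 by low counts. From the last 300 bases of each member's transcript in GENCODE vM1, reads of 50 bases were aligned to the NCBIM37 genome, and those with a second place in the genome within 1 mismatch of the best were counted as shared. All 11 reads of Rybp were shared, with copies on chromosomes 13 and 2, as were 7 of the 11 reads of Pcgf1, with a copy on its own chromosome 6. The other 8 members shared 0 of 11 reads each, and 0 other genes of that annotation lay over the 3′ end of any of the 10. The values of Rybp and Pcgf1 are therefore uncertain, since the counting could split or merge the copies. Pcgf5 had too few counts to be tested.

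The tubes differed in make-up along replicate number. The 11 skeletal muscle markers summed to 323, 301 and 1879 CPM in control and to 212, 174 and 2508 CPM in AMD3100 replicates 1, 2 and 3, so that both replicate 3 tubes stood far above the others. For each list the gene with the most CPM on average over the 6 libraries is named, here Myog, which was above Actc1 in the replicate 3 tubes and below it in the other 4. Myf6 had 0 counts in every library. The 12 mesenchyme markers, with Col3a1, summed to 4233, 4225 and 2108 CPM in control and to 4148, 4085 and 1811 CPM with AMD3100, and the 8 macrophage markers, with C1qa, to 95.8, 80.9 and 236 CPM and 102, 108 and 182 CPM. C1qa was above Csf1r in the replicate 3 tubes alone. The 12 epithelium markers, with Krt15, summed to 2314, 2325 and 1512 CPM in control and to 2751, 2406 and 3498 CPM in AMD3100 tubes. This sum was higher in every AMD3100 tube than in any control tube, and 7 of the 12 genes had a log2 fold change above 0. The separation of the sums rested on Krt15, at 1042, 1012 and 888 CPM in control and 1367, 1016 and 2472 CPM with AMD3100. Without it, an alternative chosen after seeing the data, the other 11 markers summed to 1272, 1313 and 624 CPM in control and 1385, 1390 and 1026 CPM with AMD3100, and the groups overlapped. Within same-numbered pairs, which the values bear out for replicate 3 alone, this sum was higher with AMD3100 in all 3 and the mesenchyme sum lower in all 3. Cdh1, the epithelial cadherin, named after its values were seen, was higher in every AMD3100 tube than in any control tube. No other epithelium marker separated the groups, and 5 of the 12 had a log2 fold change below 0. Among mesenchyme markers Osr1 alone separated them, lower with AMD3100. Of all genes tested, 7.44% did not overlap. The 8 endothelium markers (Kdr, which was below Pecam1 in all 3 control tubes), the 8 nerve and glia markers (Tubb3, which was below Stmn2 in 4 of 6 tubes) and the 11 erythroid markers (Hba-a1) had overlapping sums. The erythroid sum was 9581, 24801 and 16786 CPM in control and 9129, 14563 and 16237 CPM with AMD3100. All 11 erythroid genes had a log2 fold change below 0, with Hbb-y at -0.10 and Alas2 at -0.07. They are not separate observations, since Hbb-bs and Hbb-b1 had nearly the same counts in every library, as did Hbb-bt and Hbb-b2. In none of these 7 lists did a gene pass the thresholds used below, an unadjusted p-value under 0.05 and a fold change over 1.5. In whole glands, fewer cells of a type and less RNA per cell cannot be told apart, and the part of these shifts in the levels of the PRC1 genes was not tested, apart from the fits without replicate 3.

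**Figure D1:**
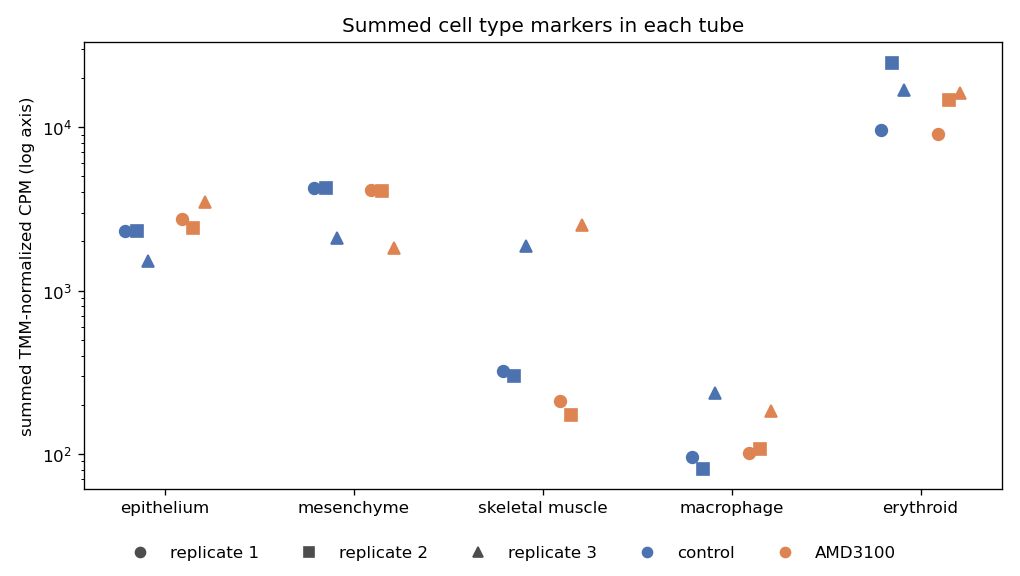
Summed TMM-normalized CPM (y axis, log scale) of 5 lists of cell type markers in each tube, coloured by group and shaped by replicate number. The 2 replicate 3 tubes stand above the others for skeletal muscle and macrophages and below them for mesenchyme, and the epithelium sum is higher in each AMD3100 tube than in any control tube, which does not hold without Krt15.

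Of the 10 members, Phc2 and Rybp stood lower in all 3 AMD3100-treated tubes than in any control tube, and the 3 tubes of a group lay close together for each of these genes. The ligase gene Rnf2 overlapped between the groups. Of 13610 genes tested with edgeR's quasi-likelihood test, 0 had a Benjamini-Hochberg adjusted p-value under 0.05, and 228 had an unadjusted p-value under 0.05. After adjustment, 5 were under 0.05 with DESeq2 and 3 with the replicate number as a block in edgeR, none of them a member. Members were therefore described by an unadjusted p-value under 0.05 and a fold change over 1.5, which the study names in its text. Its figure legends name a stricter fold change. At a fold change of at least 2, 0 members passed. Of the 9 members that passed the filter on low counts, 2 passed both thresholds, both lower in AMD3100. Of all genes tested, 1.68% did so, 1.28% lower and 0.397% higher in AMD3100. The study had reported Phc2 and Rybp as changed in these same libraries, and the members were chosen with earlier results known. Their count is therefore not an independent result. All 228 genes with an unadjusted p-value under 0.05 also passed the fold change. They are a smaller share than a threshold of 0.05 would give by chance with no differences at all. Without control replicate 3, 3.84% of genes passed both thresholds, 231 lower and 316 higher in AMD3100, and Phc2 was the only member. Among the 9, the groups of 2 members, Phc2 and Rybp, did not overlap. That was the case for 7.44% of all genes tested, 4.17% lower and 3.28% higher in AMD3100. The median log2 fold change was -0.03 over the 9 members and 0.02 over all genes tested, with 5 members below 0 and 4 above. The median of the members moved with single libraries, to -0.49 without AMD3100 replicate 3, -0.29 without AMD3100 replicate 2 and 0.11 without AMD3100 replicate 1. With the replicate number as a block in edgeR, 598 genes passed both thresholds, and the members among them were Phc2 and Rybp again.

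**Figure D2:**
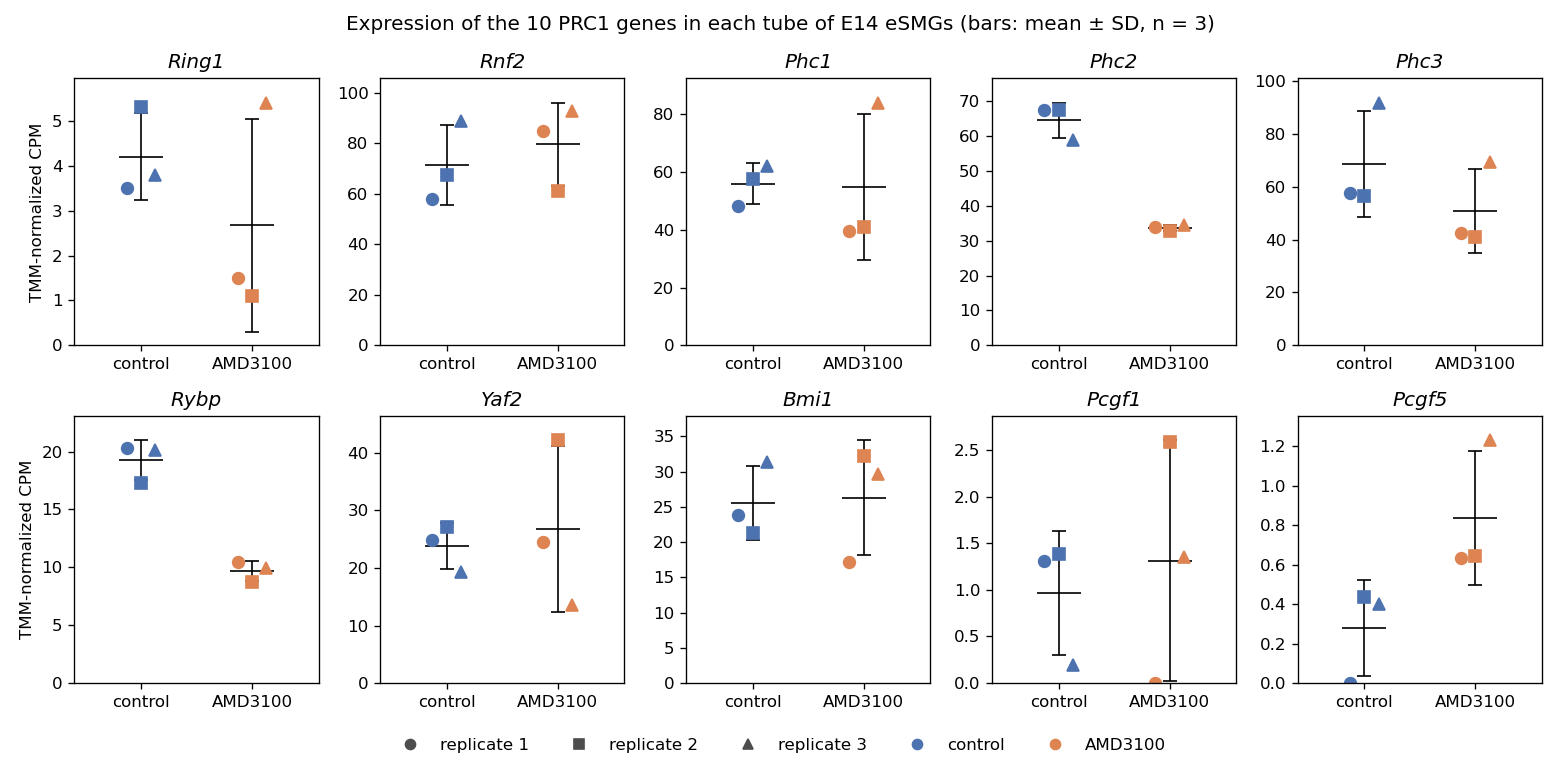
TMM-normalized CPM (y axis, from 0, its range set for each gene) of the 10 PRC1 genes in the 3 control and 3 AMD3100 tubes, with mean and SD bars and a marker shape for each replicate number. Phc2 and Rybp are lower in every AMD3100 tube than in any control tube, and the replicate 3 tubes are the highest of their group for Phc1, Phc3 and Rnf2.

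Phc2 has 3 start sites in RefSeq (GRCm38.p6, the same assembly as the mm10 build in the submitters' processing notes), and a library read from the 3′ end counts their transcripts together. The sequences around them, from 250 bases before to 50 bases after each start, are shown because Phc2 is the member that differed most clearly between the groups and its start sites differ widely in CpG content. They lie on the plus strand of chromosome 4 and are written 5′ to 3′, with each CG dinucleotide in capitals.
Phc2 start site 1 (chr4:128654452-128654751): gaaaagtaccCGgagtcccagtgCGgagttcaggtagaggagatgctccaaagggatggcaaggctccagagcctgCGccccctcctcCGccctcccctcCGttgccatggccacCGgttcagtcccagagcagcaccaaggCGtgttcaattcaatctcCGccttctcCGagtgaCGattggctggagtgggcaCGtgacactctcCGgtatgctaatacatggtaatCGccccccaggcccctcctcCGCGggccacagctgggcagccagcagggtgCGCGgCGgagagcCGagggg
Phc2 start site 2 (chr4:128688488-128688787): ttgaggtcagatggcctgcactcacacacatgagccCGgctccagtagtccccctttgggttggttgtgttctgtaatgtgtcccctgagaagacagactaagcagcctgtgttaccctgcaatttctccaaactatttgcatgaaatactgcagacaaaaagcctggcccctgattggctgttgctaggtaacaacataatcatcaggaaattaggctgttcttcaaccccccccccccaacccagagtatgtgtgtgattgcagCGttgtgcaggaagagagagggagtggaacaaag
Phc2 start site 3 (chr4:128727321-128727620): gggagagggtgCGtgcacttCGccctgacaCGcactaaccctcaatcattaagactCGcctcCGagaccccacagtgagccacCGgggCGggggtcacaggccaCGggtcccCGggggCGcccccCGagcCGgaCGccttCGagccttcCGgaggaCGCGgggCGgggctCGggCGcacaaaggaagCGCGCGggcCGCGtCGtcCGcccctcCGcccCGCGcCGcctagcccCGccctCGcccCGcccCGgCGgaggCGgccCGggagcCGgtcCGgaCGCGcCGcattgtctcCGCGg
The first held 19 CG dinucleotides, the second 2 and the third 45. Among 32851 promoters of the same length, 94.6% held at least 1, the median was 7, and 98.1% held fewer than the third Phc2 site. Of the 11 promoters listed for 7 of the members, 9 were above that median, among them Ring1 with 37, Rnf2 with 30 and Bmi1 with 23. Phc1 had 9 and Phc3 15. Rybp, Yaf2 and Pcgf1 have no entry in the table used.

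Of the PHC subunits, Phc2 passed both thresholds and Phc1 and Phc3 did not. Phc2, on chromosome 4 from 128654655 to 128752881 (GRCm38.p6), was at 67.5, 67.3 and 58.7 CPM in control replicates 1, 2 and 3 and at 34.0, 32.6 and 34.4 CPM in AMD3100 replicates 1, 2 and 3. The levels were 64.5 ± 5.0 and 33.7 ± 0.92 CPM (SD, n = 3 each), a level 1.92-fold lower with AMD3100. The log2 fold change was -0.94 (95% interval -1.53 to -0.35, edgeR unadjusted p = 0.00596, adjusted p = 1.0), and the exact two-sided permutation test of 3 against 3 gave p = 0.1, the smallest it allows. Within a group, the log2 level of Phc2 had an SD of 0.086, smaller than for all but 0.382% of genes tested, whose median SD was 0.64. With the 2 replicate 3 tubes left out, the log2 fold change of Phc2 was -1.02 (edgeR unadjusted p = 0.00118, adjusted p = 0.719). Gm33712, a long noncoding RNA gene of RefSeq, lies within Phc2 from 128718576 to 128727535, and does not reach its 3′ end.

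Phc1, on chromosome 6 from 122317731 to 122340227, was at 48.2, 57.6 and 62.2 CPM in control and at 39.5, 41.1 and 84.0 CPM in AMD3100 tubes. The third AMD3100 tube was above all control tubes and the other two below them, and the log2 fold change was -0.03 (95% interval -0.84 to 0.78). Phc3, on chromosome 3 from 30899295 to 30969479, was at 57.5, 56.7 and 91.8 CPM in control and at 42.5, 41.0 and 69.3 CPM in AMD3100 tubes. In each of the 3 same-numbered pairs Phc3 was lower with AMD3100, while the groups overlapped and both replicate 3 tubes were the highest of their group. Its log2 fold change was -0.43 (95% interval -1.21 to 0.34, edgeR unadjusted p = 0.237), and it was -0.16 without control replicate 3 and -0.73 without AMD3100 replicate 3. With the replicate block the p-value was 0.0278 before and 0.703 after adjustment (edgeR), at a log2 fold change of -0.44, which is below a fold change of 1.5.

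The make-up of the PHC counts can be read within a library, where the scaling between libraries plays no part. Phc2 took 39.0%, 37.1% and 27.6% of the PHC counts in control and 29.3%, 28.4% and 18.3% in AMD3100 replicates 1, 2 and 3. It was lower in every same-numbered pair, although the AMD3100 tubes of replicates 1 and 2 stood above control replicate 3. Phc1 took 29.6% ± 1.98 in control and 38.2% ± 5.74 with AMD3100 (SD, n = 3 each), and Phc3 took 35.9% ± 6.4 and 36.4% ± 0.610. The log2 ratio of Phc2 to Phc1 was 0.49, 0.22 and -0.08 in control and -0.22, -0.33 and -1.29 in AMD3100 tubes. Here the groups did not overlap, with a difference of -0.82 between their means (exact two-sided permutation p = 0.1). It is 1 of 4 ratios computed, their p-values are not adjusted, and 0.1 is the smallest that 3 against 3 allows. The log2 ratio of Phc2 to Phc3 differed by -0.50 with overlapping groups (exact permutation p = 0.3). Summed over the 3 genes, PHC expression was 189 ± 20.9 CPM in control and 139 ± 41.8 CPM in AMD3100 tubes (SD, n = 3 each), and the groups overlapped.

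**Figure D3:**
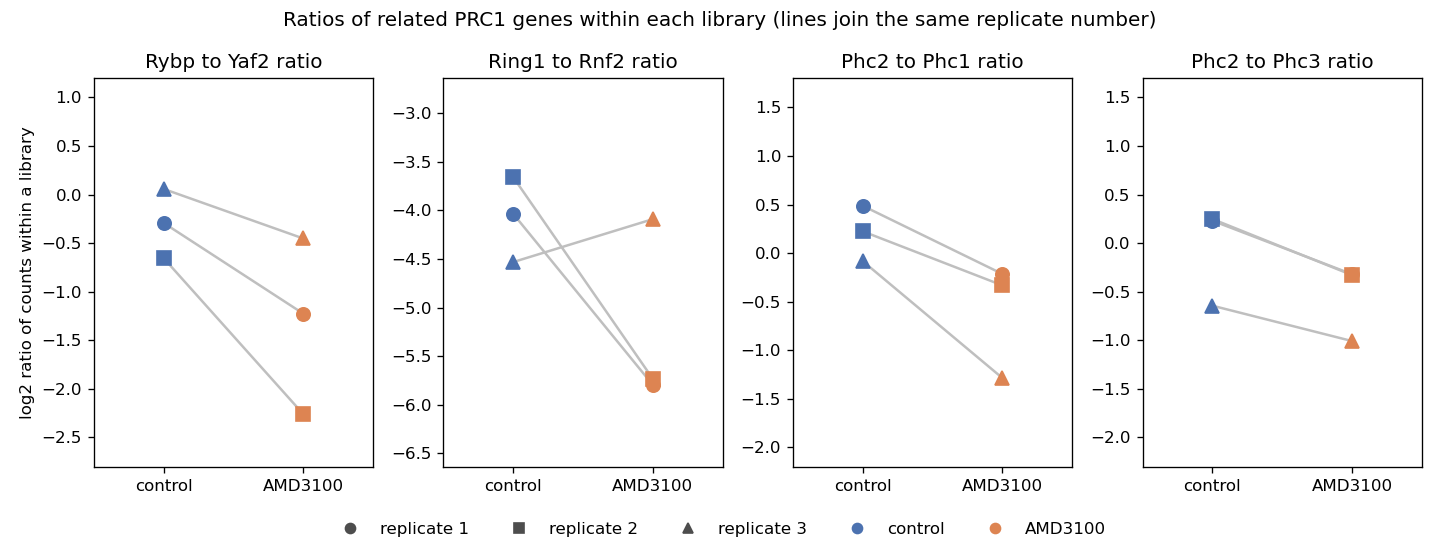
Log2 ratio of the counts of 2 related genes within a library (y axis, the same span of 4 units in each panel) in control and AMD3100 tubes, with lines joining tubes of the same replicate number. The Phc2 to Phc1 ratio separates the groups, and the Ring1 to Rnf2 ratio is lower with AMD3100 in replicates 1 and 2 but not in replicate 3.

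RYBP links the variant complexes to ubiquitylated H2A, and YAF2 can take its place. Rybp, on chromosome 6 from 100228565 to 100287358, was at 20.3, 17.3 and 20.1 CPM in control and at 10.4, 8.76 and 9.95 CPM in AMD3100 tubes. Every AMD3100 tube was below every control tube, with 19.2 ± 1.71 against 9.71 ± 0.860 CPM (SD, n = 3 each), a level 1.98-fold lower. The log2 fold change was -0.99 (95% interval -1.77 to -0.20, edgeR unadjusted p = 0.0191, adjusted p = 1.0). Its within-group SD of 0.13 on the log2 scale was smaller than for all but 1.57% of genes tested. Rybp did not pass the p-value threshold with the 2 replicate 3 tubes left out (log2 fold change -0.97, edgeR unadjusted p = 0.0580) or without control replicate 3 alone (-0.94, edgeR unadjusted p = 0.0509). Since its 3′ end has near-identical copies in the genome, the values of Rybp may include reads from them.

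Yaf2, on chromosome 15 from 93283833 to 93336935, was at 24.9, 27.2 and 19.3 CPM in control and at 24.4, 42.1 and 13.6 CPM in AMD3100 tubes. The AMD3100 tubes held both the highest and the lowest level, and the log2 fold change was 0.17 (95% interval -0.81 to 1.15). Without AMD3100 replicate 2 it was -0.32. Rybp took 45.0%, 38.9% and 51.0% of the counts of the pair in control and 29.9%, 17.2% and 42.2% in AMD3100 replicates 1, 2 and 3, lower in each same-numbered pair. The log2 ratio of Rybp to Yaf2 differed by -1.02 between the group means, with overlapping groups (exact two-sided permutation p = 0.2).

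Of the ligases, Rnf2 (RING1B) is the main H2A ubiquitin ligase of embryonic cells and Ring1 (RING1A) its paralog. Rnf2, on chromosome 1 from 151469398 to 151500991, was at 58.0, 67.4 and 88.8 CPM in control and at 84.8, 61.3 and 93.0 CPM in AMD3100 tubes. The groups overlapped, and the log2 fold change of 0.16 had a 95% interval of -0.53 to 0.85. For Rnf2 it was 0.02 without AMD3100 replicate 3 and 0.35 without control replicate 3. Ring1, on chromosome 17 from 34020792 to 34024680, was covered by 40, 73 and 38 counts in control tubes against 26, 12 and 44 with AMD3100, or 3.50, 5.32 and 3.79 against 1.5, 1.11 and 5.40 CPM. The first 2 AMD3100 tubes were below all control tubes and the third above them, and the log2 fold change was -0.67 (95% interval -2.63 to 1.30). It was -1.69 without AMD3100 replicate 3, -0.29 without AMD3100 replicate 2 and -0.37 without AMD3100 replicate 1. Ring1 supplied between 1.73% and 7.31% of the RING counts of a library, and Rnf2 the rest. Their log2 ratio differed by -1.13 between the group means (exact two-sided permutation p = 0.2).

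The PCGF subunits decide which form of PRC1 a ligase joins, BMI1 the canonical one, PCGF1 the form recruited to CpG islands by KDM2B, and PCGF5 a variant form. Bmi1, on chromosome 2 from 18677018 to 18686629, was at 23.8, 21.3 and 31.4 CPM in control and at 17.1, 32.3 and 29.6 CPM in AMD3100 tubes. The groups overlapped, with a log2 fold change of 0.04 (95% interval -0.77 to 0.85). Pcgf1, on chromosome 6 from 83077552 to 83080855, gave 15, 19 and 2 counts in control tubes against 0, 28 and 11 with AMD3100. A count of 0 in AMD3100 replicate 1 allows a level of up to 0.173 CPM, taking 3 counts as the floor for counting error. The log2 fold change of 0.42 had an interval of -3.40 to 4.24, so that no difference in Pcgf1 was detectable at this depth. Pcgf5, on chromosome 19 from 36348329 to 36460970, gave 0, 6 and 4 counts in control tubes against 11, 7 and 10 with AMD3100. Its levels did not overlap, being higher with AMD3100, but it did not pass the filter on low counts. Without that filter its log2 fold change was 1.55 (95% interval -3.07 to 6.16, edgeR unadjusted p = 0.485).

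**Figure D4:**
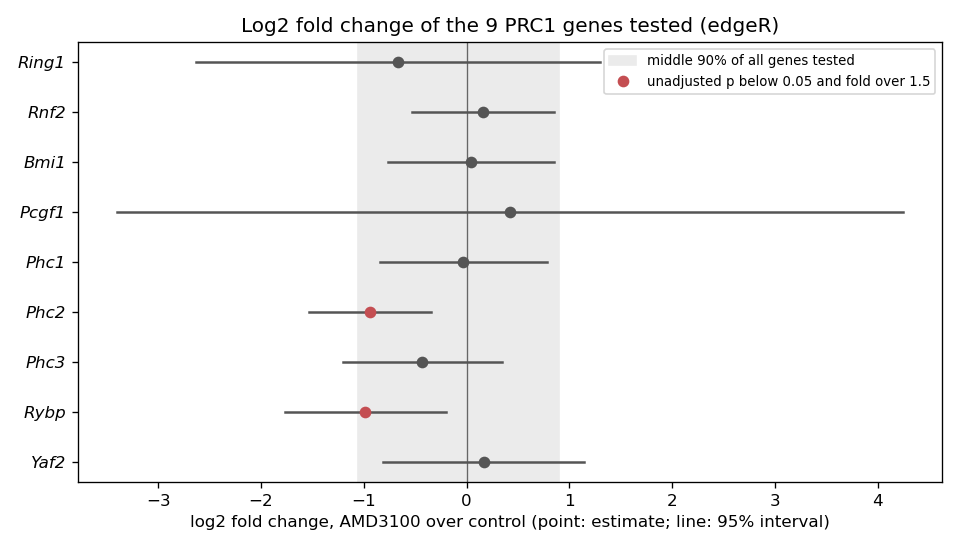
Log2 fold change of AMD3100 over control (x axis) for the 9 members tested, with 95% intervals from edgeR, red where both thresholds were passed. The grey band holds the middle 90% of all genes tested, from -1.06 to 0.90, and the estimates of all 9 members lie inside it, while the intervals of Phc2 and Rybp lie below 0.

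The genes around the 10 members in the same pathway were counted in the same fit. Of 26 other PRC1 subunits tested, 1 passed both thresholds, and their median log2 fold change was -0.10. This was Wdr5, a WD repeat protein that variant PRC1 shares with histone H3K4 methyltransferases. Wdr5 was at 56.4, 56.2 and 78.2 CPM in control and at 36.7, 25.5 and 42.7 CPM in AMD3100 tubes, without overlap. Its fold change on the log2 scale was -0.86 ± 0.31 (SE, edgeR unadjusted p = 0.0231, Benjamini-Hochberg adjusted p = 1.0). Wdr5 did not pass without control replicate 3, AMD3100 replicate 1 or AMD3100 replicate 2. Next by p-value were Tfdp1, the partner of E2F factors, with a log2 fold change of -0.66 (edgeR unadjusted p = 0.106), and Bcorl1, a corepressor, with 0.48 (edgeR unadjusted p = 0.135). The groups did not overlap for either, Tfdp1 being lower and Bcorl1 higher in AMD3100. Of all genes tested, 7.44% did not overlap. Of the 5 chromobox readers, 0 passed, and the lowest p-value was that of Cbx8, whose control libraries held 22, 29 and 21 counts against 0, 1 and 5 with AMD3100, without overlap (log2 fold change -3.17, 95% interval -6.90 to 0.57, edgeR unadjusted p = 0.0871). Cbx8 passed both thresholds with DESeq2 and with limma-voom on quantile-normalized values and in none of the other fits, and at such counts a gene can pass the filter through 1 group alone, so that no direction is read from it. Cbx7, with 74, 1 and 38 counts in control against 37, 21 and 27 with AMD3100, had a log2 fold change of -0.49 (edgeR unadjusted p = 0.701). Its groups overlapped, and no direction is read from it either.

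Of the 15 genes tested for H2A deubiquitinases and their partners, which remove the mark that PRC1 places, 0 passed. Foxk1, Foxk2 and Usp22 had the lowest p-values, with log2 fold changes of -1.13, -0.32 and 0.35. Of these, Foxk2 alone did not overlap between the groups, being lower in AMD3100. Foxk1 passed both thresholds with the replicate block, limma-voom on quantile-normalized values, no filter or replicates 1 and 2 only, and without AMD3100 replicate 3. Of the 12 PRC2 subunits, 0 passed, led by Epop (listed as E130012A19Rik) at 1.21, Ezh2, the methyltransferase, at 0.41 and Eed at -0.65. Epop and Ezh2 were higher in every AMD3100 tube than in any control tube, and 1 other subunit was lower without overlap. Epop passed both thresholds, higher in AMD3100, with at least 10 counts in every sample and without control replicate 3. Of the 10 genes that recruit polycomb complexes, some of them also in the lists above, 0 passed, led by Cbfb at -0.65, Rest at 0.53 and Phf19 at -1.65. Cbfb was lower without overlap. Rest overlapped, and passed both thresholds, higher in AMD3100, with replicates 1 and 2 only. Phf19 had 12, 37 and 13 counts in control against 21, 1 and 2 with AMD3100, and no direction is read from it. Of 41 classic polycomb targets (the Hox genes, Cdkn2a and Cdkn2b), 10 had 0 counts in every library and 6 could be tested, of which 0 passed, led by Hoxc13 at 2.67, Hoxd4 at -1.78 and Hoxb2 at -2.12. Their counts were low, Hoxb2 having 19, 28 and 41 in control against 0, 0 and 15 with AMD3100, and Hoxc13 having 11, 0 and 5 against 22, 88 and 0. Genes this low can pass the filter through the group where they are high, and no direction is read from them. Their median log2 fold change was -1.08, and 0.28 over the 31 targets with a count when no filter was used. Over these 6 lists, 1 of 69 different genes tested passed both thresholds (1.45%, and 1.68% of all genes). With the replicate block 5 did (7.25%, and 4.39% of all genes), namely Wdr5, Tfdp1, Foxk1, Eed and Cbfb, all lower in AMD3100.

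The patterns most like those of Phc2 and Rybp were looked for among 8239 other genes at 10 CPM or more, by the root mean square difference of centred log2 CPM over the 6 libraries. For Phc2 these were Rab9 (0.075), Fam103a1 (0.14) and Asrgl1 (0.15), and for Rybp they were Fam103a1 (0.12), Hnrnph3 (0.13) and Rab9 (0.14). These genes had log2 fold changes between -1.03 and -0.75, as the choice by pattern makes them.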

How the data were processed

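Control and AMD3100-treated E14 eSMGs were compared, with groups and replicate numbers from the sample labels. The authors deposited raw read counts per gene symbol from 50 bp single reads of 3′ libraries. The submitters' notes name Bowtie2, edgeR and mm10, and versions, annotation, strand setting and molecular identifiers are not given in the sources used here. Of 23282 lines per library, 22 identical repeats were left out. The members and lists were chosen with earlier results of these data known. The test used edgeR 4.0.16 (R 4.3.3) with TMM, filterByExpr, glmQLFit and glmQLFTest, treatment as the only term and Benjamini-Hochberg adjustment over all 13610 genes tested. Each standard error is the coefficient over the root of F. Ratios used counts plus 0.5. The study names quantile normalization and an equal-variance test per gene. That normalization was tried with limma 3.58.1. DESeq2 1.42.0 was another alternative. Reads were aligned with minimap2 2.31-r1302.

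All 10 members were named, with up to 3 genes of the lowest p-value in each other list and any past both thresholds, the gene of highest mean CPM in each marker list, and 3 genes most like Phc2 and Rybp. A gene that this rule names is not reported here. Depth ranged from 9051595 to 14393031 counts, and Rn45s, the ribosomal RNA precursor, took 16.2% to 32.5% of them. A floor of 3 counts was 0.173 to 0.368 CPM, and covers counting error only. For pairing, deviations from the group mean were correlated across genes between libraries of the same replicate number in the labels. They gave 0.131, 0.128 and 0.517 for replicates 1, 2 and 3. Replicates 1 and 2 correlated as well with each other's number (0.123 and 0.142), so the values set apart replicate 3 only. For replicates 1 and 2, same-numbered pairs follow the labels alone.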

Additional observations from a re-analysis of the deposited data

How the results depend on the processing

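The members past both thresholds were Phc2 and Rybp in each of DESeq2, upper quartile normalization, the replicate block, limma-voom on quantile-normalized values, a minimum of 10 counts in every sample, the fit without a filter, robust estimation and Rn45s left out, and the block changed no other member's call. The count of members was 1 with replicates 1 and 2 only, 0 at a fold change of at least 2, and 1 to 2 when single replicates were left out, with Rybp lost without control replicate 3. The number of genes past both thresholds was 598 with the replicate block and 613 with replicates 1 and 2 only, and 163 to 547 when single replicates were left out, the highest without control replicate 3 and 451 without AMD3100 replicate 3. Without control replicate 3, 42.2% of these were lower in AMD3100, against 76.3% with all libraries. In the other lists the count was 2 with DESeq2, 4 with limma-voom, 2 without the filter, 2 with at least 10 counts, 5 with the replicate block, 4 with replicates 1 and 2 only, and 0 to 3 with each replicate left out. The median of the classic targets was 0.28 without the filter, -0.66 with Rn45s left out, -0.70 with the block and -0.26 without AMD3100 replicate 3. With limma-voom the log2 fold changes of Bmi1 and Pcgf1 were -0.0018 and -0.36, and with replicates 1 and 2 only that of Pcgf1 was -0.085. Leaving out single replicates gave log2 fold changes from -0.12 to 0.28 for Bmi1, -0.53 to 1.01 for Pcgf1, -0.49 to 0.16 for Phc1 and -0.32 to 0.47 for Yaf2, whose directions therefore changed. The members' median was -0.36 with limma-voom and -0.40 with replicates 1 and 2 only. When single replicates were left out, Phc2 stayed between -1.0 and -0.91 and Rybp between -1.06 and -0.91. The ratio differences kept their sign when single replicates were left out, between -1.02 and -0.48 for Phc2 to Phc1, -0.79 and -0.27 for Phc2 to Phc3, -1.69 and -0.84 for Ring1 to Rnf2 and -1.45 and -0.54 for Rybp to Yaf2. The causes of these changes were not tested. Depth limits Ring1, Pcgf1 and Pcgf5, with 233, 75 and 38 counts over the 6 libraries.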
